A study of Mus musculus with 5 samples.

Results

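The genes described here are *Cidea* and 8 other genes of lipid droplets and triglyceride metabolism, namely *Cideb*, *Cidec*, *Plin2*, *Plin3*, *Pnpla2*, *Dgat1*, *Dgat2* and *Gpd1*, taken by symbol from the 55411 genes that were counted. *Cidea* and *Gpd1* were selected on the measured values themselves, since their counts after odorant exposure had drawn attention, and their change is therefore given as a description, without a p-value and with nothing read from their calls. The other 7 were added because they belong to the same family or pathway, to ask whether *Cidea* was higher alone or together with a lipid storage program. The values come from 5 FACS-seq libraries of GFP-positive olfactory sensory neurons (OSNs) that transcribe the odorant receptor gene *Olfr151* (also called *M71*). All mice were 7 weeks old and homozygous for the Olfr151(tm26Mom) allele, which marks these neurons by tau-GFP. The 3 control pools (1, 2 and 3) came from mice that received DMSO for 5 h, and the 2 exposed pools (1 and 3) from mice that received 5% acetophenone, an *Olfr151* agonist, in DMSO for the same time. Each pool combined the cells of 4 mice, and the labels give 200 cells per pool in one field and 400 in another. Exposed pool 2 was not analysed here. The pools are separate groups of mice, so p-values measure the spread between pools and not between animals.

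Lipid droplets store triglycerides and sterol esters under a coat of perilipins and other proteins. The CIDE proteins sit where droplets touch and help lipid to pass from the smaller to the larger droplet, and *Cidea* is best known from brown adipocytes. Triglycerides are built on glycerol 3-phosphate by successive acyltransferases, ending with DGAT1 and DGAT2, and their breakdown starts with the lipase ATGL, the product of *Pnpla2*. Neurons in general hold few lipid droplets.

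The counts summed to 43534590, 49527380 and 45139127 in control pools 1, 2 and 3 and to 43683076 and 42780403 in exposed pools 1 and 3. A count of 0 allows a level of up to 3 counts, which was 0.0607 to 0.0718 CPM, counts scaled to library size, depending on the pool. The reads carry no molecular identifiers, so this limit covers counting error only. The libraries carried the markers of mature OSNs. The 8 markers listed (*Omp*, *Adcy3*, *Cnga2*, *Gnal*, *Gng13*, *Stoml3*, *Cnga4* and *Ano2*) summed to 69865, 77244 and 73694 TPM, a level scaled to transcript length and library size, in control pools and to 58154 and 57579 in exposed pools. Of these, *Cnga2* and *Cnga4* were called downregulated after exposure by edgeR, as were 1.86% of all genes tested. DESeq2 called *Cnga2* alone. Its adjusted p for *Cnga4* was 0.0051, but the log2 fold change of -0.477 was short of the 0.5 required for a call. Without the count minimum *Cnga4* was not called by edgeR (adjusted p = 0.135). In bulk pools, fewer cells of a type and less RNA per cell cannot be told apart.

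At rest, *Cidea* (ENSMUSG00000024526, chromosome 18 of GRCm38 from 67343604 to 67367785, plus strand, 1115 bases of exons) was the most abundant of the 9 genes. Its level was 99.04, 70.9 and 158 TPM in control pools 1, 2 and 3, a mean of 109 ± 44.7 (SD, n = 3). The median gene among those tested had 25.2 TPM. *Cidea* took places 1683, 2427 and 1043 in the order of TPM within the control pools, so that it was a well expressed but not a leading transcript. *Pnpla2*, which encodes the lipase ATGL, came next, with 20.7, 51.9 and 48.2 TPM (mean 40.3 ± 17.0, n = 3). *Dgat1*, which encodes one of the enzymes that add the last acyl chain of a triglyceride, followed with 15.4, 11.8 and 10.7 TPM (mean 12.6 ± 2.44). The control ranges of these 3 genes did not overlap. Below them the ranges of neighbours in the order overlapped: *Plin2* had a mean of 2.08 TPM, *Plin3* 1.86, *Dgat2* 0.739, *Cideb* 0.216, *Cidec* 0.132 and *Gpd1* 0.0167. *Plin2*, *Plin3* and the other 2 CIDE genes thus lay far below *Cidea* in the same libraries.

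**Figure D1:**
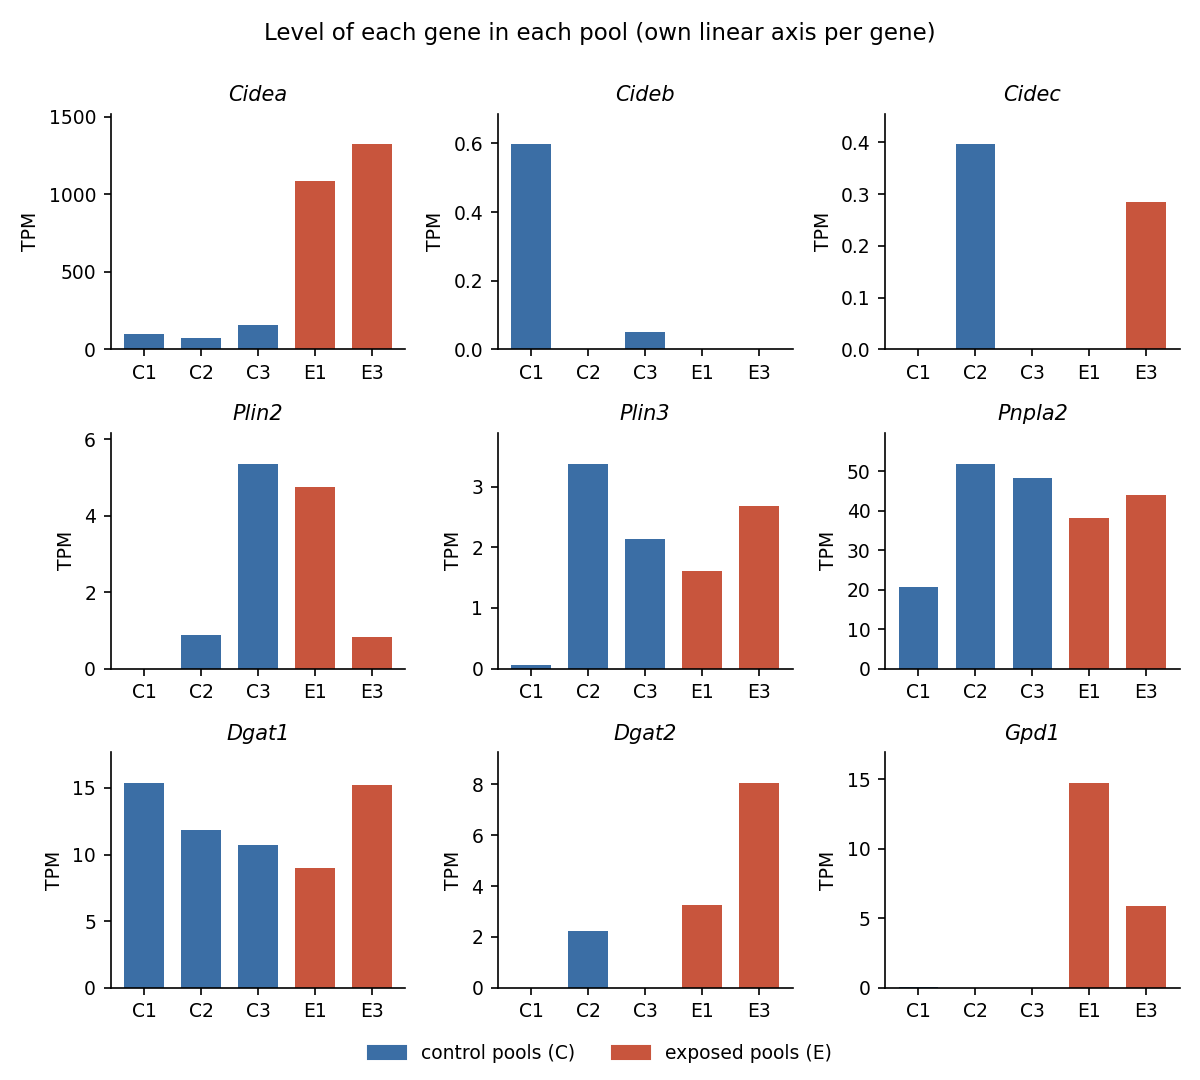
Level of each of the 9 genes in TPM (linear axis from 0, different for each gene) in control pools 1, 2 and 3 (C1 to C3, blue) and exposed pools 1 and 3 (E1 and E3, red), with 1 bar per pool. *Cidea* stands at 70.9 to 158 TPM in control and at 1087 and 1322 TPM in exposed pools, *Gpd1* and *Dgat2* are higher in both exposed pools at much lower levels, and the pools of the other 6 genes overlap.

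After exposure, *Cidea* had 17492 and 19521 counts in exposed pools 1 and 3, compared with 1491, 1075 and 2354 in control pools 1, 2 and 3. Both exposed pools lay far above the 3 control pools. In TPM these were 1087 and 1322, a mean of 1204 ± 166 (SD, n = 2), and *Cidea* moved to places 82 and 63 within these libraries. Scaled by TMM, its mean was 35.7 ± 14.6 CPM in control and 438 ± 41.9 CPM in exposed pools, 12.3-fold higher, with a log2 fold change of 3.62 (standard error, SE, 0.35) in the fit by edgeR. Over the 16 alternative settings the log2 fold change lay between 3.37 and 3.99. A ratio within a library does not depend on scaling between libraries. The TPM of *Cidea* was 2.69, 1.00 and 2.38 times the summed TPM of the other 8 genes in control pools 1, 2 and 3, and 15.2 and 17.2 times in exposed pools 1 and 3.

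The other CIDE genes did not accompany it at a level that these libraries could resolve. *Cideb*, known from lipoprotein assembly in liver, had 12, 0 and 1 counts in the control pools and 0 in both exposed pools. *Cidec*, known from the large droplet of white adipocytes, had 0, 10 and 0 counts in control and 0 and 7 in exposed pools. Both genes stayed at or near the detection limit in all 5 libraries, so no fold change is given. The more distant relatives *Dffa* and *Dffb*, which share the CIDE-N domain and encode the inhibitor and the nuclease of the DNA fragmentation factor, were both tested. *Dffa* had 36.7, 32.7 and 37.1 TPM in control and 32.8 and 33.8 in exposed pools, with overlapping groups and a log2 fold change of 0.07 (SE 0.25, adjusted p = 0.913). *Dffb* had 56, 2 and 99 counts in control and 219 and 263 in exposed pools. It was higher in both exposed pools, through which alone it met the count minimum described below, but did not pass the threshold (log2 fold change 2.30, SE 1.20, adjusted p = 0.35). These and all p-values below come from the quasi-likelihood test of edgeR, adjusted by the Benjamini-Hochberg method over all 10024 genes tested, and a gene was called at an adjusted p below 0.1 with a log2 fold change beyond 0.5 in either direction. Over all these genes, 9.26% were higher and 9.93% lower at an unadjusted p under 0.05, and both exposed pools lay above all control pools in CPM for 20.3% and below them for 19.6%.

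Of the perilipin genes, *Plin2* and *Plin3* were detected, and pools of the same condition differed widely. *Plin2*, which encodes the main droplet coat protein of cells other than adipocytes, had 0, 42 and 251 counts in the control pools and 241 and 39 in exposed pools. *Plin3*, whose product moves from the cytosol to new droplets, had 3, 174 and 108 counts in control and 88 and 134 in exposed pools. For both genes the exposed pools fell within the range of the control pools by counts and by TPM. Both missed the minimum of 143 counts in every library of a condition, and a fit without this minimum gave log2 fold changes of 0.67 for *Plin2* (adjusted p = 0.915) and 0.43 for *Plin3* (adjusted p = 0.937). The perilipins of adipocytes and oxidative tissues were at or close to 0. *Plin1* had 1 count, in control pool 3, *Plin4* had 13, in exposed pool 1, and *Plin5* had 0 in all pools.

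*Pnpla2*, *Dgat1* and *Dgat2*, which act in triglyceride breakdown or in its last step of synthesis, gave no call by edgeR or DESeq2 with all pools. *Pnpla2* had 845, 2134 and 1939 counts in the control pools and 1663 and 1760 in exposed pools, which lay inside the control range. Its log2 fold change was 0.21 (SE 0.38, adjusted p = 0.801), and its sign turned when the spike-in RNAs set the scale (-0.12) or when control pool 1 was left out (-0.066). *Dgat1* had 635, 492 and 436 counts in control and 397 and 617 in exposed pools, which again overlapped (log2 fold change 0.08, SE 0.42, adjusted p = 0.942). Its sign turned without control pool 3 (-0.0072) and without exposed pool 3 (-0.32). *Dgat2*, the other enzyme of this step, had 0, 93 and 0 counts in the control pools and 144 and 329 in exposed pools. Both exposed pools were above the control pools, at 3.24 and 8.06 TPM, but the spread was wide and the gene was not called (log2 fold change 3.15, SE 1.96, adjusted p = 0.438). It met the count minimum only through the exposed pools. Without control pool 2, the 2 remaining control pools were at 0 and *Dgat2* was called (adjusted p = 0.0594), with a fitted log2 fold change of 10.94 that depends on the prior count, while the shrunken value of DESeq2 with all pools was 0.075.

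*Gpd1* encodes the cytosolic enzyme that makes glycerol 3-phosphate, the backbone of triglycerides, from a glycolytic intermediate. It had 2, 0 and 0 counts in the control pools and 630 and 232 in exposed pools, so that it was at or under the detection limit at rest and clearly detected after exposure. Against a floor of 3 counts in each control pool it was at least 156-fold higher by the mean of both exposed pools, a bound that moved to 226-fold with exposed pool 1 alone and to 85.6-fold with exposed pool 3 alone. Its exposed level was nevertheless low, 14.7 and 5.91 TPM, and differed between the 2 exposed pools. Its paralog *Gpd1l*, whose product catalyses the same reaction, was far more abundant. *Gpd1l* had 67.9, 135 and 111 TPM in control and 265 and 246 in exposed pools, a rise called by edgeR (log2 fold change 1.48, SE 0.24, adjusted p = 0.0288). *Gpd1* therefore made up 5.27% and 2.34% of the summed TPM of both genes in exposed pools 1 and 3.

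Counted over the 9 genes, 5 met the count minimum, and 2 of these (*Gpd1* and *Dgat2*) met it only through the exposed pools. *Cidea* and *Gpd1* were called upregulated, as were 3.43% of all genes tested, and nothing is read from this count because both were selected on that contrast. Of the other 3 genes tested, 0 were called upregulated or downregulated, 0 had an unadjusted p under 0.05, and DESeq2 called 0 as well.

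To see whether genes of lipid storage outside the 9 moved, 134 genes in 11 lists were examined, of which 82 met the count minimum. Of these, 8 met it only through the exposed and 3 only through the control pools. edgeR called 6 upregulated, which is 7.32% of those tested, compared with 3.43% of all genes. It called 2 downregulated, 2.44% compared with 1.86% of all genes. The lists were drawn up with earlier results of these data known, and nothing is read from the difference between these shares. The median log2 fold change over the 82 genes was -0.0037, close to the -0.026 of all genes tested, with 41 genes above and 41 below 0. DESeq2 called 7 upregulated and 8 downregulated, where it called 6.71% and 7.13% of all genes. Of the 6 upregulated genes, 4 stood in the list of triglyceride and sterol ester synthesis, and the lists of droplet proteins, lipolysis, fatty acid uptake, regulators, brown adipocyte genes and AMP-activated kinase held no call by edgeR. All 8 calls were lost when the spike-in RNAs set the scale, with the same signs. Without exposed pool 1, 2 of the 8 (*Gpat3* and *Acly*) were called, and without exposed pool 3, 4 of the 8 (*Gpat3*, *Agpat4*, *Agpat5* and *Acsl6*).

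**Figure D2:**
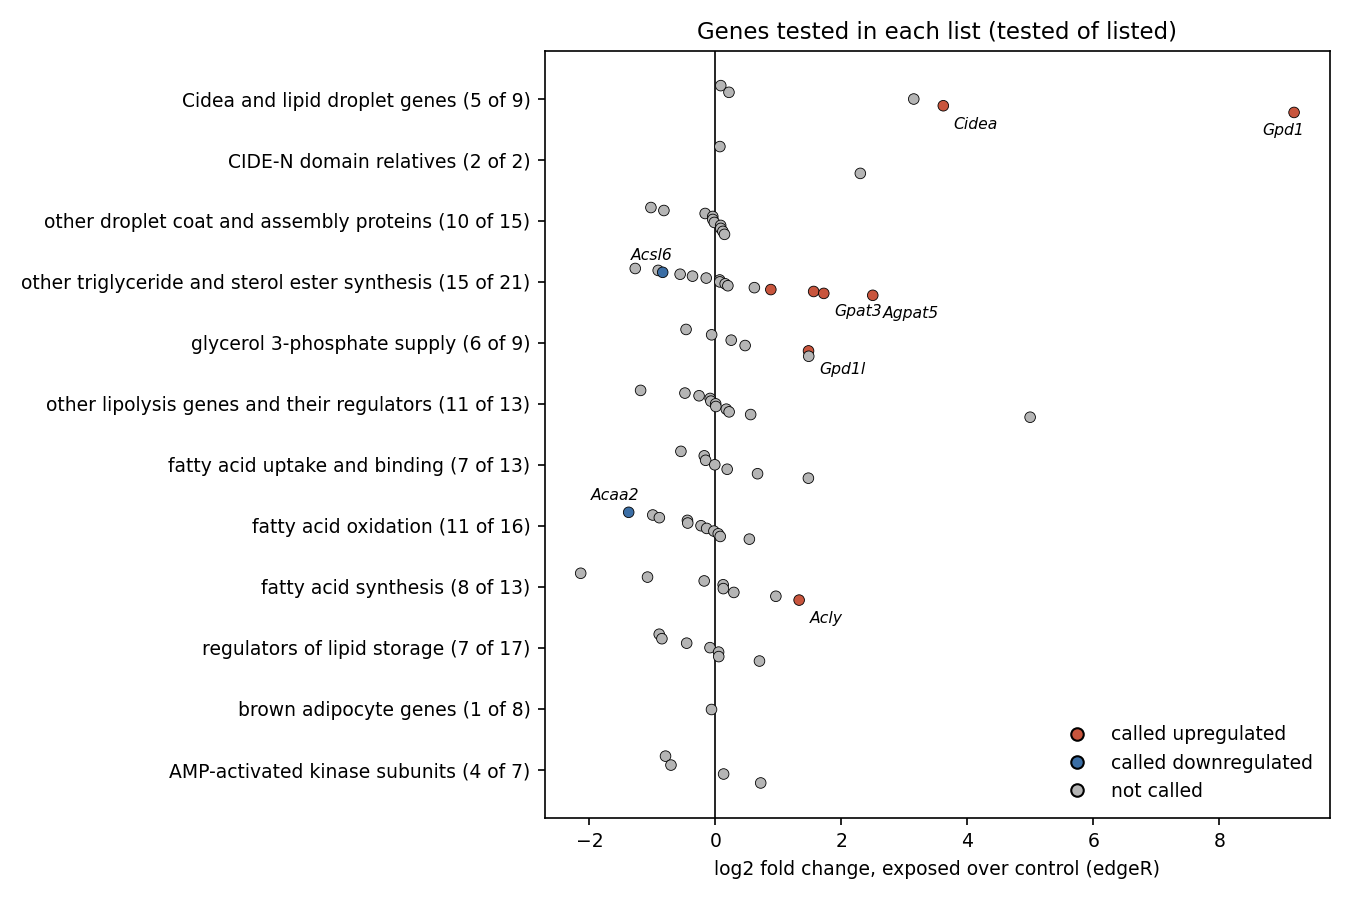
Log2 fold change of exposed over control pools (x axis, edgeR) of every gene tested in each list, 1 point per gene, with the number tested of the number listed beside each list and called genes in red (upregulated) or blue (downregulated). *Cidea* and *Gpd1* stand to the right of the other genes of their list, the fitted value of *Gpd1* rests on control pools at or near 0, and the lists are spread about 0 except for single genes such as *Gpat3* and *Agpat5*. The unlabelled grey point near 5 is *G0s2*.

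The synthesis list held 21 further genes of triglyceride and sterol ester synthesis, of which 15 were tested. edgeR called 4 upregulated (26.7%, compared with 3.43% of all genes) and 1 downregulated (6.67%, compared with 1.86%), and 9 of the 15 log2 fold changes were above and 6 below 0. At an unadjusted p under 0.05, 4 were higher and 2 lower, where 9.26% and 9.93% of all genes were, and DESeq2 called 4 upregulated and 2 downregulated. This list, too, was drawn up with earlier results of these data known, and nothing is read from these counts and shares. *Gpat3* encodes an acyltransferase of the endoplasmic reticulum that adds the first acyl chain to glycerol 3-phosphate. It had 96.5, 120 and 118 TPM in control and 350 and 300 in exposed pools, with no overlap (3.29-fold, log2 fold change 1.72, SE 0.16, adjusted p = 0.0042). *Agpat4* and *Agpat5* belong to the family that adds the second chain, forming phosphatidic acid. *Agpat4* had 274, 273 and 255 TPM in control and 495 and 379 in exposed pools, and rose 1.84-fold (log2 fold change 0.88, adjusted p = 0.0555). Its call was kept under 9 of 16 alternative settings. *Agpat5*, a minor transcript at rest with 5.12, 3.37 and 3.75 TPM, had 21.0 and 20.4 TPM after exposure and rose 5.65-fold (log2 fold change 2.50, adjusted p = 0.0103). For both genes all exposed pools were above all control pools. *Agpat3*, of the same family, had 91.9, 108 and 48.6 TPM in control and 22.5 and 39.0 in exposed pools, which were all lower. It was not called by edgeR (log2 fold change -1.27, adjusted p = 0.165) and was called downregulated by DESeq2 (adjusted p = 0.0148). *Acsl4*, an acyl-CoA synthetase that prefers arachidonate, rose from 17.6, 29.0 and 20.2 TPM to 62.7 and 52.8 (log2 fold change 1.56, adjusted p = 0.0288). *Acsl6*, another acyl-CoA synthetase and a more abundant one, went the other way, from 263, 319 and 296 TPM to 132 and 160 (log2 fold change -0.84, adjusted p = 0.0248). Phosphatidic acid and acyl-CoA feed membrane phospholipids as well as triglycerides, and these enzymes serve both. *Gpat4*, the other acyltransferase of the endoplasmic reticulum, and the phosphatase gene *Lpin1* had log2 fold changes of 0.07 each and were not called.

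The supply of precursors gave single calls by edgeR, which called 3.43% of all genes upregulated and 1.86% downregulated, and nothing is read from 1 call in a list. Among 6 genes tested for glycerol 3-phosphate supply, *Gpd1l* was the only one called, and the abundant glycolytic gene *Tpi1* had a log2 fold change of -0.06 (adjusted p = 0.86). *Pck2* was lower, with 64.4, 73.5 and 84.4 TPM in control and 47.2 and 48.2 in exposed pools (log2 fold change -0.47, adjusted p = 0.2). At an unadjusted p under 0.05, 1 gene of the supply list was higher and 1 lower. Among 8 genes tested for fatty acid synthesis, *Acly*, which makes cytosolic acetyl-CoA from citrate, rose from 72.9, 70.8 and 90.9 TPM to 146 and 206 (log2 fold change 1.33, SE 0.20, adjusted p = 0.02). The sterol regulator *Srebf2* had a log2 fold change of 0.12 (adjusted p = 0.734). *Elovl5* went the other way, from 13.5, 5.76 and 9.46 TPM to 2.16 and 1.76, and met the count minimum only through the control pools. It was not called by edgeR (log2 fold change -2.14, adjusted p = 0.128) and was called downregulated by DESeq2 (adjusted p = 0.0155). At an unadjusted p under 0.05, 1 gene of this list was higher and 1 lower. DESeq2 called 1 upregulated and 1 downregulated, compared with 6.71% and 7.13% of all genes. Among 11 genes tested for fatty acid oxidation, *Acaa2*, a mitochondrial thiolase of the last step of the cycle, fell from 62.9, 60.8 and 59.5 TPM to 21.3 and 20.7 (log2 fold change -1.38, SE 0.31, adjusted p = 0.0767). This call was kept under 5 of 16 alternative settings and was lost when any 1 of the 5 libraries was left out. *Acadvl*, the dehydrogenase for very long chains, had a log2 fold change of 0.54 (adjusted p = 0.184), and *Eci1*, an isomerase for unsaturated chains, one of -0.995 (adjusted p = 0.256). At an unadjusted p under 0.05, 1 gene of this list was higher and 2 were lower, compared with 9.26% and 9.93% of all genes, and nothing is read from these counts.

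**Figure D3:**
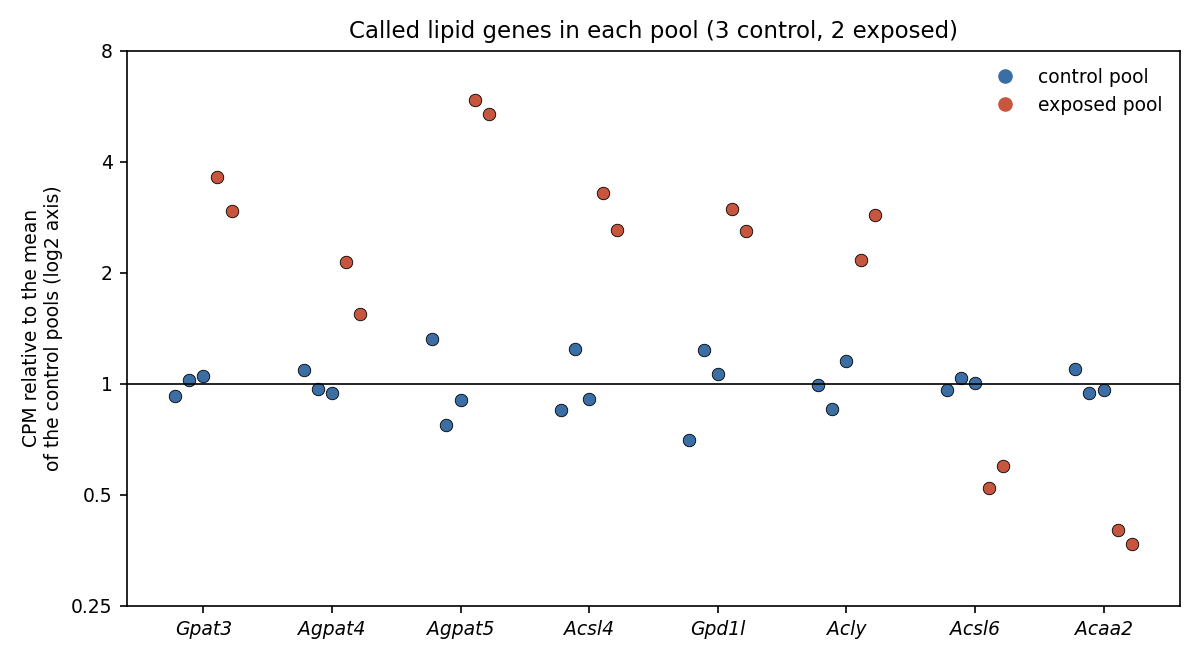
CPM of the 8 called lipid genes outside the 9, divided by each gene's mean over the control pools (log2 axis, line at 1), with 1 point for each of 3 control (blue) and 2 exposed pools (red). In *Gpat3*, *Agpat4*, *Agpat5*, *Acsl4*, *Gpd1l* and *Acly* both exposed pools lie above all control pools, and in *Acsl6* and *Acaa2* both lie below, as did 20.3% and 19.6% of all genes tested, and these 8 were chosen for being called.

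The promoters of 2 acyltransferase genes that rose, *Gpat3* and *Agpat4*, and of the lipase gene *Pnpla2*, which was not called, are shown because the data compare these genes directly. Each is the 250 bases before the RefSeq transcript start on the plus strand of GRCm38.p6, at chr5:100845979-100846228, chr17:12119034-12119283 and chr7:141454938-141455187, and capitals mark matches to the motifs named below.
Gpat3: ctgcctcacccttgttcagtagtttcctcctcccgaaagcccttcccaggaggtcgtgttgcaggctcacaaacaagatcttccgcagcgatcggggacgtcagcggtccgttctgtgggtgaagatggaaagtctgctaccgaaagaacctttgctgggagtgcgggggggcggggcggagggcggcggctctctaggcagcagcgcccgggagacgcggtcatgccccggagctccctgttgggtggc
Agpat4: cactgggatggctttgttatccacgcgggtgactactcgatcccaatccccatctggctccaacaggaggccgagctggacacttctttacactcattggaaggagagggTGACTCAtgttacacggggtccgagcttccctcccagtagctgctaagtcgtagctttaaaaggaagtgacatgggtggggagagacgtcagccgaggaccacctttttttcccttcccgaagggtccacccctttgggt
Pnpla2: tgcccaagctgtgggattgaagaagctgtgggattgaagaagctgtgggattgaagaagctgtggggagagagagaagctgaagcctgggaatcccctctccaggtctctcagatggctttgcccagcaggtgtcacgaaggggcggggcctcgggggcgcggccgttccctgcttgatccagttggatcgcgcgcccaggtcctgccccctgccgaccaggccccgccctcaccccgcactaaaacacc
The sequences were searched on both strands for exact matches to TGACGTCA (CRE), TGANTCA (AP-1), GCGNGGGCG (Egr) and the DR1 repeat that PPARs bind, in windows that also held the 50 bases after the start. These occurred in 1.79%, 7.81%, 5.55% and 0.0396% of 32851 RefSeq windows. The window of *Agpat4* held 1 AP-1 match, starting 140 bases before the transcript start, and those of *Gpat3* and *Pnpla2* held none of the motifs. Of the 9 genes, 5 matched a window (not *Cidea*, *Dgat1*, *Dgat2* and *Gpd1*), as did 5 of the 6 upregulated lipid genes (not *Agpat5*). An AP-1 match stood 13 bases after the start in *Cideb* and 96 bases before it in 1 of 2 windows of *Cidec*, both genes near 0 in these libraries, and 17 bases before it in 1 of 3 windows of *Acsl6*. A match is a string of letters and not a measured binding site.

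The lists of droplet proteins and of lipolysis gave no call by edgeR. Over all genes, edgeR called 3.43% upregulated and 1.86% downregulated, and DESeq2 6.71% and 7.13%. At an unadjusted p under 0.05, 9.26% of all genes were higher and 9.93% lower. Nothing is read from the counts of these lists. Of 15 further droplet coat and assembly genes, 10 were tested and 0 were called by edgeR, while 1 had an unadjusted p under 0.05 and 1 was called downregulated by DESeq2 (*Spast* in both cases). The most abundant were *Aup1* (log2 fold change -0.02, adjusted p = 0.977) and *Rab18* (0.14, adjusted p = 0.696), both droplet-associated proteins with other roles in the endoplasmic reticulum. Of 13 lipolysis genes and regulators, 11 were tested and 0 were called by edgeR. At an unadjusted p under 0.05, 1 was higher and 2 were lower, and DESeq2 called 1 up and 1 down. The most abundant, *Abhd6* and *Nceh1*, had log2 fold changes of -0.07 and -0.48 (adjusted p = 0.913 and 0.26). *G0s2*, which encodes an inhibitor of ATGL, was chosen for mention after its values were seen and met the count minimum only through the exposed pools. It had 3, 57 and 0 counts in control and 291 and 819 in exposed pools, above all control pools, and it was not called by edgeR (log2 fold change 5.00, SE 1.66, adjusted p = 0.187). It was called upregulated by DESeq2 (adjusted p = 0.0204), and by edgeR when the spike-in RNAs set the scale or when control pool 2 was left out.

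The genes tested for fatty acid uptake and binding were not called. Nothing is read from the counts of the lists in this paragraph. edgeR called 3.43% of all genes upregulated and 1.86% downregulated, and DESeq2 6.71% and 7.13%. At an unadjusted p under 0.05, 9.26% of all genes were higher and 9.93% lower. *Slc27a2*, a fatty acid transporter and very long chain acyl-CoA synthetase, had 751, 976 and 781 TPM in control and 636 and 698 in exposed pools (log2 fold change -0.16, adjusted p = 0.566). *Slc27a4* had a log2 fold change of 0.19 (adjusted p = 0.696). Of 7 genes tested for fatty acid uptake and binding, 0 were called by edgeR and by DESeq2, and 1 had an unadjusted p under 0.05. Of 7 regulators of lipid storage tested, 0 were called by edgeR, 1 had an unadjusted p under 0.05, and DESeq2 called 1, *Rxrb*, downregulated. The most abundant were *Nr1h2* (log2 fold change 0.05, adjusted p = 0.911) and *Ppargc1a* (0.70, adjusted p = 0.508). *Pparg*, the main regulator of adipocyte genes, had 25 counts in control pool 2 and 0 elsewhere. Of 4 tested AMP-activated kinase subunits 0 were called by edgeR, 1 had an unadjusted p under 0.05 and 1, *Prkaa2*, was called downregulated by DESeq2. *Prkag1*, the most abundant, had a log2 fold change of 0.13.

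*Cidea* is a marker of brown adipocytes, so 8 further genes of these cells were examined. Of these, 1 was tested, *Cox7a1* (log2 fold change -0.06, adjusted p = 0.951). *Ucp1*, which uncouples respiration in these cells, was at 2 counts in control pool 3 and at 0 elsewhere, and *Cox8b* had 10, 102 and 21 counts in control and 29 and 9 in exposed pools. *Dio2*, which activates thyroid hormone, had 0, 16 and 38 counts in control and 402 and 60 in exposed pools, above all control pools but below the count minimum in exposed pool 3. *Kcnk3* had 58 counts in exposed pool 1 and 0 elsewhere, *Prdm16* had 61, 54 and 0 in control and 50 and 8 in exposed pools, and *Elovl3* and *Otop1* had 0 in all pools. Of 8 adipocyte markers, *Retn* and *Pck1* had 0 counts in all pools, *Adipoq* had 21 counts in exposed pool 1 and 0 elsewhere, *Fabp4* had 16 in control pool 1 and 0 elsewhere, and *Lep*, *Cfd* and *Plin1* had at most 4 in any pool. Their summed level was 3.34, 2.96 and 3.17 TPM in control and 4.41 and 2.04 TPM in exposed pools, with *Lipe* the most abundant. The part of adipocytes in the level of *Cidea* was not tested.

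Myeloid cells also carry lipid genes, and their markers varied between pools. The 12 markers summed to 363, 68.0 and 84.3 TPM in control pools and to 377 and 169 TPM in exposed pools, with *Lyz2* the most abundant. Of 4 tested, 0 were called by edgeR, 2 were higher at an unadjusted p under 0.05 and 1 was called upregulated by DESeq2. At that unadjusted p, 9.26% of all genes were higher and 9.93% lower. edgeR called 3.43% of all genes upregulated and 1.86% downregulated, and DESeq2 6.71% and 7.13%. Nothing is read from the counts of markers. *Tyrobp* had 59.7, 13.6 and 7.54 TPM in control and 107 and 90.2 in exposed pools, and *S100a9* had 13.3, 6.34 and 26.02 TPM in control and 52.8 and 36.0 in exposed pools. *Ptprc*, the general leukocyte marker, had 0, 54 and 1 counts in control and 542 and 517 in exposed pools and was called by DESeq2 but not by edgeR (adjusted p = 0.191). These 3 markers, named after their values were seen, met the count minimum only through the exposed pools, and *Tyrobp* and *S100a9* were not called by either tool. The other 9 overlapped between conditions, among them *C1qb* with 602, 76 and 0 counts in control and 71 and 19 in exposed pools and *Csf1r* with 866, 0 and 0 in control and 788 and 66 in exposed pools. The part of myeloid cells in the results was not tested. Sustentacular and gland markers summed to 393, 373 and 129 TPM in control and 346 and 166 TPM in exposed pools, and erythroid markers to 1455, 508 and 57.3 TPM in control and 60.7 and 26.9 TPM in exposed pools. Markers of basal cells and ensheathing glia summed to at most 3.05 TPM in any pool. Immature OSN markers summed to 352, 320 and 400 TPM in control and 581 and 476 in exposed pools, where *Gap43*, the most abundant of the 4, was called upregulated by edgeR. *Dpysl5* had 72.7, 91.7 and 93.8 TPM in control and 40.7 and 54.6 in exposed pools, with no call by edgeR (adjusted p = 0.112), and DESeq2 called *Gap43* and *Stmn1* upregulated and *Dpysl5* downregulated.

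The genes next to *Cidea* on chromosome 18 were examined as well. *B430212C06Rik* lies on the minus strand from 67321209 to 67344103, and its start overlaps that of *Cidea* by 500 bases without overlap of exons, so that reads on annotated exons of one are not counted for the other. It had 10, 40 and 183 counts in control and 1645 and 2102 in exposed pools, all above control, and was called upregulated (log2 fold change 4.73, SE 1.08, adjusted p = 0.0909). It met the count minimum only through the exposed pools, where it is high, and was not called without that minimum (adjusted p = 0.26). This call was near the threshold and was kept under 7 of 16 alternative settings. *Impa2*, which encodes an inositol monophosphatase, lies on the plus strand from 67289186 to 67322472, and its exons share 1264 bases with those of *B430212C06Rik*. Counting did not use strand, so the reads of these 2 genes cannot be told apart there. *Impa2* had 102, 22 and 253 counts in control and 766 and 1142 in exposed pools, and was not called (log2 fold change 3.04, SE 0.92, adjusted p = 0.158). It also met the count minimum only through the exposed pools, and was called by DESeq2 (adjusted p = 0.0142), and by edgeR with spike-in scaling and without control pool 3. *Mppe1*, farther from *Cidea* on that side, had 1271, 1303 and 1451 counts in control and 441 and 648 in exposed pools, with no overlap. It was not called by edgeR (log2 fold change -1.17, adjusted p = 0.129) and was called downregulated by DESeq2 (adjusted p = 0.0138). On the other side, *Tubb6* had 5, 52 and 362 counts in control and 65 and 2 in exposed pools and was not tested. *Afg3l2* and *Prelid3a* overlapped between conditions (log2 fold changes -0.20 and -0.49).

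Within 500 kb of the start of *Cidea*, a distance chosen after the values were seen, 13 other genes were tested, of which 2 were called upregulated and 0 downregulated by edgeR, where 3.43% and 1.86% of all genes were. At an unadjusted p under 0.05, 3 were higher and 3 lower, where 9.26% and 9.93% of all genes were. DESeq2 called 3 upregulated and 3 downregulated there, compared with 6.71% and 7.13% of all genes. Nothing is read from these counts. The window surrounds a gene selected on its rise, and *B430212C06Rik* and *Impa2*, which share exon bases, met the count minimum only through the exposed pools. Besides *B430212C06Rik*, the gene called upregulated by edgeR was *Chmp1b*, a subunit of the ESCRT machinery. It had 200, 218 and 257 counts in control and 1038 and 477 in exposed pools (log2 fold change 1.87, adjusted p = 0.0949). Around *Gpd1* (chromosome 15 from 99717515 to 99725005, plus strand), 17 other genes were tested within the same distance and 0 were called by edgeR, while 2 were lower at an unadjusted p under 0.05 and DESeq2 called 2 downregulated. Its nearest neighbours with counts were *Smarcd1*, *Asic1* and *Gm17241* on one side and *Cox14*, *Cers5* and *Gm17058* on the other. The log2 fold changes of the 4 tested among them lay between -0.14 (*Asic1*) and 0.74 (*Smarcd1*), with adjusted p of 0.485 or above.

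**Figure D4:**
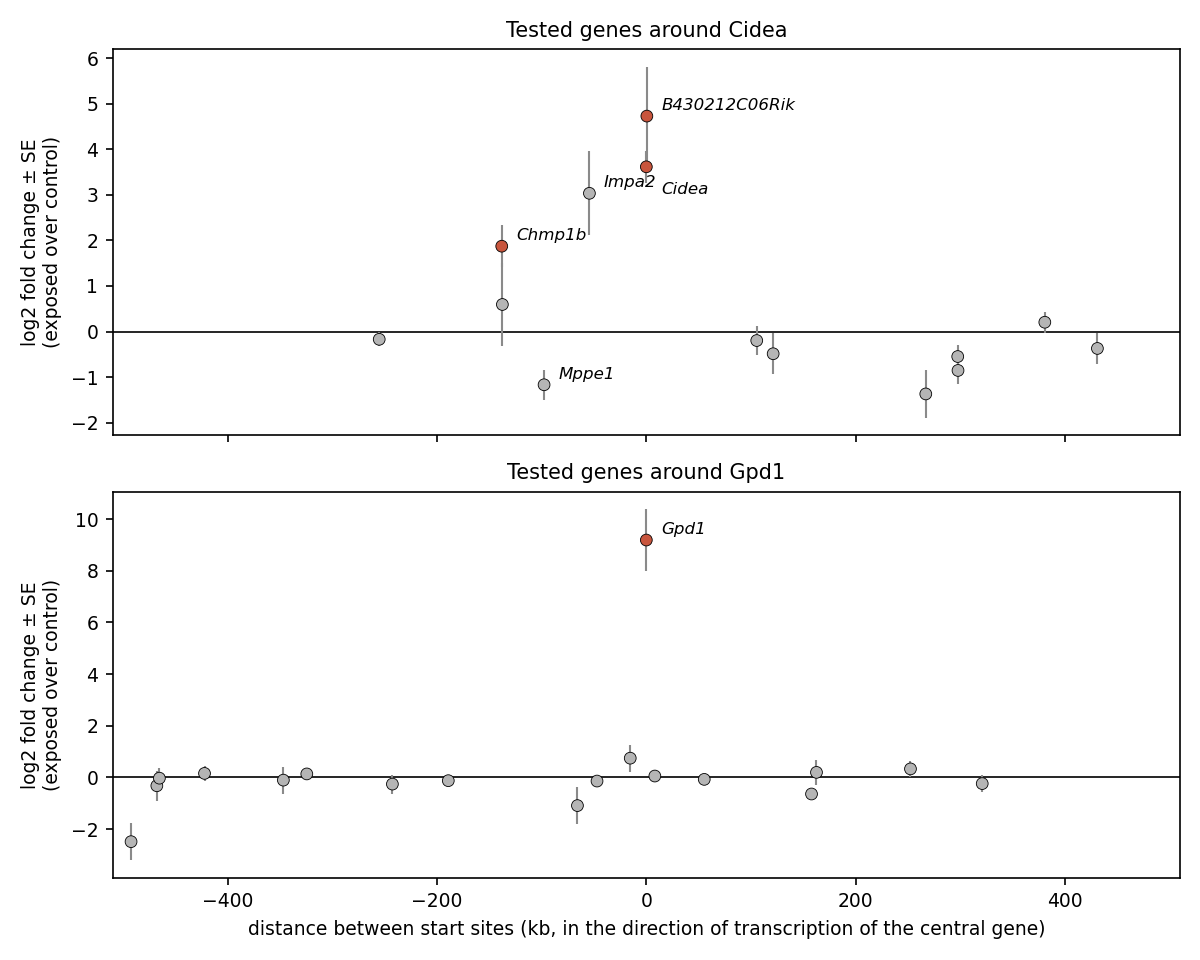
Log2 fold change of exposed over control pools with its standard error (y axis, edgeR) of all tested genes whose start lies within 500 kb of that of *Cidea* (above) or *Gpd1* (below), against the distance between start sites in kb, with called genes in red. Around *Cidea*, *B430212C06Rik* and *Chmp1b* are called, the latter with its start 138 kb away, and *Impa2* is higher without a call. Around *Gpd1* none is called by edgeR, with *Kcnh3* lowest at -2.49.

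The tested genes whose profile over the 5 pools was most like that of *Cidea* were *Slc38a1*, *Sprr1a*, *Mfge8*, *Tgfb2* and *Tnfrsf23*. Likeness was the distance between log2(CPM + 1) profiles centred on the control pools, odorant receptor genes left out, and it ran from 0.664 for *Slc38a1* to 0.891 for *Tnfrsf23*. Since the measure selects genes that were higher after exposure, no test is given. *Sprr1a*, *Tgfb2* and *Tnfrsf23* met the count minimum only through the exposed pools. The added 1 CPM shrinks the change of genes near 0 in control, so likeness in this measure is not likeness in fold change. *Slc38a1*, a neutral amino acid transporter, had 308, 326 and 406 counts in control and 4742 and 5608 in exposed pools, 16.3-fold higher. *Mfge8*, a secreted protein that binds phosphatidylserine, had 1341, 918 and 1057 counts in control and 12923 and 12538 in exposed pools, 12.5-fold higher. *Tgfb2*, a growth factor, had 48, 60 and 161 counts in control and 2169 and 1260 in exposed pools. *Sprr1a*, a small proline-rich protein, had 0, 0 and 12 counts in control and 580 and 432 in exposed pools. *Tnfrsf23*, a decoy receptor for TRAIL, had 0 counts in all control pools and 532 and 440 in exposed pools, at least 177-fold higher. None of these 5 genes belongs to the lipid lists.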

How the data were processed

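Polyadenylated RNA of *Olfr151* GFP-positive OSNs sorted from 4 mice per pool was amplified with the SMARTer kit (12 PCR cycles), and 200 pg of cDNA went into Nextera XT libraries read as single reads of 50 bases. The authors mapped reads with STAR 2.7.0a to GRCm38 and counted them on exons with featureCounts 1.6.3, without strand and without multi-mapping reads. Near-identical copies of a gene therefore lose reads. Where exons of genes on the 2 strands overlap, a read cannot be assigned to one of them by strand. The deposited values are these raw counts, with exon coordinates and lengths, without filter or normalization. Symbols came from GENCODE M21 and RefSeq (the listed *Spart* is *Spg20* there), and promoter sequences from RefSeq on GRCm38.p6.

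Spike-in RNAs (0.249% to 0.631% of counts) and the reporter were left out of library sizes and tests. TPM was computed from counts and exon lengths. The 5 libraries were fitted together by condition with edgeR 4.0.16 (TMM, glmQLFit with robust estimation, glmQLFTest) in R 4.3.3. A gene was tested where each library of either condition reached 143 counts, the first whole count above the density's local minimum on the log2 scale (10024 genes). Calls required a Benjamini-Hochberg adjusted p below 0.1 with a log2 fold change beyond 0.5 in either direction. A fold against control pools all at or under 3 counts was computed against 3 counts. The procedure was tested on simulated data, but the outcome is not given here and no result rests on it. Alternatives were DESeq2 1.42.0 with apeglm 1.24.0, glmTreat, 3 other scalings, no robust estimation, 3 other filters, an adjusted p of 0.05, a replicate block and each library left out. For called lipid genes, *G0s2* and genes around *Cidea* they were added after seeing the data.

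The 9 genes and all lists were chosen with earlier results of these data known. Genes named are the 9, called genes of the lists, the 2 most abundant of each list, 3 neighbours on each side of *Cidea* and *Gpd1*, the 5 profiles most like that of *Cidea*, and markers. Others named (*G0s2*, *Pnpla3*, *Elovl5*, *Plin1*, *Plin4*, *Plin5*, *Gpat4*, *Lpin1*, *Pck2*, *Pparg*, *Ucp1*, *Dio2*, *Kcnk3*, *Prdm16*, *Elovl3*, *Otop1*, *Spast*, *Rxrb*, *Prkaa2*, *Eci1*, *Agpat3*, *Kcnh3* and *Chmp1b*) were chosen after their values were seen. Exposed pool 2 was not analysed here.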

Additional observations from a re-analysis of the deposited data

How the results depend on the processing

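With 3 control and 2 exposed pools, a single difference per gene gives the spread among exposed pools, low counts limit *Cideb* and *Cidec*, and the spread between pools limits *Plin2*, *Plin3* and *Dgat2*. Over all genes, where 344 were called upregulated and 186 downregulated, DESeq2 called 673 and 715, glmTreat 146 and 56, spike-in scaling 92 and 48, the filterByExpr filter 163 and 77, and an adjusted p of 0.05 gave 190 and 91. Leaving out 1 library gave 93 to 354 upregulated and 19 to 439 downregulated. Spike-in scaling shifted the median of all log2 fold changes from -0.026 to -0.23. Of the 9 genes, 2 were called upregulated, and 1 to 3 with 1 library left out: *Gpd1* was lost without exposed pool 1, and *Dgat2* was gained without control pool 2. The other alternatives without the replicate block gave 2.

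Of the lipid lists, where 6 genes were upregulated and 2 downregulated, spike-in scaling gave 1 (*G0s2*) and 0, glmTreat gave 5 and 0, DESeq2 7 and 8, and filterByExpr, no filter and an adjusted p of 0.05 gave 1 downregulated gene each. Leaving out 1 library gave 2 to 6 upregulated and 0 to 4 downregulated. Signs turned for *Pnpla2* with spike-in scaling (-0.12) and without control pool 1 (-0.066), for *Dgat1* without control pool 3 (-0.0072) and without exposed pool 3 (-0.32), and for *Afg3l2* without exposed pool 1 (0.068). With 1 library left out, the values ran from -0.066 to 0.41 for *Pnpla2*, from -0.32 to 0.37 for *Dgat1* and from -0.57 to 0.068 for *Afg3l2*, none of them called. The resting level of *Cidea* was 31.98 as RPKM from scaled library sizes, a different unit from TPM, and no other resting value of it moved by more than its SD.

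Pool numbers 1 and 3 occur in both conditions. Deviations of same-numbered pools from their condition means correlated with r of 0.0564 and -0.0794. With 2 exposed pools the deviations of one are the opposite of the other's, so these are not separate values. Mice of both conditions were handled each day, but no label ties a pool number to a day or another shared batch. The pools were therefore taken to share only a number. A replicate block on the 4 pools of these numbers called 24 genes upregulated and 4 downregulated, compared with 160 and 64 without control pool 2 in the fit without a block. With the replicate block, 1 of the 9 genes (*Cidea*) was upregulated, and the lipid lists had 0 genes upregulated and 0 downregulated. The cause of these changes was not tested.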
